A study of Homo sapiens with 2 samples.

Results

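Protein-coding genes of ammonia disposal, 9 in all, were taken from a table of 61541 human genes, as every gene whose symbol was CPS1, OTC, ASS1, ASL, ARG1, ARG2, NAGS, SLC25A15 or GLUL. All 9 were found once each, and all 9 had reads. The RNA came from Huh7, an established human hepatocellular carcinoma line. Huh7-NC cells received a control siRNA and Huh7-si cells received an siRNA against BRF2, and the purpose of the comparison was to see which mRNAs differ after BRF2 knockdown. There was 1 library per condition, so no difference has a replicate check. Both groups were the same cell line on the same background, and which of the study's BRF2 siRNAs was used and the time of harvest are not given in the sources used here.

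The urea cycle is the liver's route for turning toxic ammonia into urea. It starts in the mitochondrion, where carbamoyl phosphate is made and joined to ornithine, and it continues in the cytosol, where citrulline is converted to argininosuccinate, then to arginine, and finally to urea and ornithine. Periportal hepatocytes carry this cycle, whereas hepatocytes around the central vein trap the ammonia that escapes it by making glutamine. Liver cancers are known to lose or retain single enzymes of the cycle.

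The sequences in front of 4 of the genes are shown, and these genes do not cover the whole range of what was measured. CPS1, the gene that was higher by total reads, and GLUL, the most abundant, are not among them. ASS1 and ASL had the largest falls by total reads, ARG1 had the same level per length in both libraries, and OTC was nearly silent. Each window covers 250 bases before to 50 bases after a RefSeq transcript start (GRCh38.p14), written 5′ to 3′ on the gene's own strand. Capitals mark matches, on either strand, to any of 5 motifs. The TATA motif was TATAAA and the GC box was GGGCGG. The CCAAT box was searched by its name's letters, the E-box as CACGTG, and the cyclic AMP element, CRE, as TGACGTCA. No 2 matches overlap in these 4 windows. The windows are ASS1 at chr9:130444711-130445010, ASL at chr7:66075569-66075868, ARG1 at chr6:131572976-131573275 and OTC at chrX:38352354-38352653, all on the plus strand.
ASS1: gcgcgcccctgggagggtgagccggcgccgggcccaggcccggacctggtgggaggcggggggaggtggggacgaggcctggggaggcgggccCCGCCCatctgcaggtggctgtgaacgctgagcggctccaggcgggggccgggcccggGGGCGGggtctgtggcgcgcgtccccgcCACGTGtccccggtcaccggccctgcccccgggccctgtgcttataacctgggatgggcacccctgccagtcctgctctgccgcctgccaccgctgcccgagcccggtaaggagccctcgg
ASL: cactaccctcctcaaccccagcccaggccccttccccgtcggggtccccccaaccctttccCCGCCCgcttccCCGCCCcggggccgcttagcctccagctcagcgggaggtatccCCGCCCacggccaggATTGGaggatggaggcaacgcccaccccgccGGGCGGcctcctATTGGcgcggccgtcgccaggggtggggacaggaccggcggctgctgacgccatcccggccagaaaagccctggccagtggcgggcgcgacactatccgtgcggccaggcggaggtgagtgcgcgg
ARG1: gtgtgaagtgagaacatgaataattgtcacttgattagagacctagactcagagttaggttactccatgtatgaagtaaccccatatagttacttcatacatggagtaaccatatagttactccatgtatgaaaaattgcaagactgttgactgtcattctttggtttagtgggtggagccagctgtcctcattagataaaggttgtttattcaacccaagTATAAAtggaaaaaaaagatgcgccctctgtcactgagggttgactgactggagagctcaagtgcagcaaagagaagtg
OTC: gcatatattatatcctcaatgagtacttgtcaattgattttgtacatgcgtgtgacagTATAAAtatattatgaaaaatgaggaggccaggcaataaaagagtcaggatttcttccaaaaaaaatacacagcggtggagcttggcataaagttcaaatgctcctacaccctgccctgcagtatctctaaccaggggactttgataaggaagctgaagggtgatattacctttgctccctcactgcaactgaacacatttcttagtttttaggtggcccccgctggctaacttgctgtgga

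ASS1 held 29 CpG dinucleotides in 78.3% GC and ASL held 30 in 74.0% GC, above the median of 14 CpG and 58.7% GC over 35116 windows of this length. ARG1 held 1 CpG in 40.0% GC and OTC held 3 in 41.7% GC, below both medians. This ASS1 window had 2 GC boxes and an E-box at -71 to -66, counted from the start site. A second ASS1 start had 29 CpG in 71.7% GC, with 2 GC boxes and no E-box. The ASL window had 4 GC boxes and 2 CCAAT boxes. ARG1 had no GC box, and its TATAAA lay at -29 to -24. OTC had TATAAA only at -192 to -187. Over all windows, the TATA motif occurred in 11.5%, the GC box in 45%, the CCAAT box in 34.6%, the E-box in 7.26% and the CRE in 1.85%. Windows were also found for the other 5 genes. ARG2 (31 CpG), SLC25A15 (45 CpG), NAGS (15 CpG) and both starts of GLUL (29 and 25 CpG) were above the median in CpG number, and the 3 starts of CPS1 (1, 3 and 3 CpG) were below it. ARG2 was the one gene of the 9 with a CRE, at -172 to -165 and again at -64 to -57. These are matches of letters, and no binding was measured.

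The deposited values were estimated counts, in which reads that fit several genes are shared out, and TPM, a level scaled for gene length and library size. The library totals were 22852648 reads for Huh7-NC and 22089016 for Huh7-si. The 9 genes took 14183 and 12112 of these reads. BRF2, the target, had 1281 reads against 364 after the BRF2 siRNA and decreased by 70.6% relative to total reads. The labelled liver origin was checked with 10 hepatocyte markers, all of which had reads. Their summed TPM was 24343 in Huh7-NC and 23684 in Huh7-si, led by APOA2, ALB and AFP, the fetal albumin relative. Their median log2 fold change was -0.13, with 7 of 10 below 0. APOA2 was at -0.49, ALB at -0.11 and AFP at 0.24. APOB, passed the call rule given below as higher, with a log2 fold change of 1.04 (0.81 with TMM, edgeR's scaling that sets the bulk of genes to no change, and 0.33 against genes of like length). Another 10 markers, of leukocytes, macrophages, endothelium, stellate cells and bile ducts, summed to 189 and 192 TPM, of which KRT19, a biliary keratin, made 178 and 176. CD68, a macrophage marker, had 8.30 and 10.7 TPM. The T cell gene CD3E and the muscle and stellate gene DES were at 0 in both libraries, KRT7 was at 0 in Huh7-NC and CDH5 at 0 in Huh7-si. COL1A1, a collagen of stellate cells, was called higher, from 76 reads (1.02 TPM) to 229 reads (3.81 TPM). The part of these markers in the results was not tested. In bulk RNA, fewer cells expressing a gene and less RNA per cell cannot be told apart.

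By level per length, GLUL stood above each single gene of the cycle. In Huh7-NC, GLUL stood at 236 TPM (95% interval 230 to 242), followed by ASL at 91.2 TPM, ASS1 at 61.0 TPM and ARG1 at 52.3 TPM. NAGS (19.9 TPM), SLC25A15 (17.9 TPM) and ARG2 (17.1 TPM) came next, and neighbours in this trio had overlapping intervals. CPS1 at 2.58 TPM and OTC at 0.52 TPM were last. These intervals are exact Poisson limits on the reads, scaled to TPM, and cover counting error only. In Huh7-si the order was the same, except that ARG1 at 52.3 TPM stood above ASS1 at 39.6 TPM, with intervals of 49.0 to 55.7 and 37.0 to 42.4. SLC25A15 and ARG2 were again not told apart. Of the summed TPM of the 9 genes, GLUL made 47.3% with the control siRNA and 56.3% with the BRF2 siRNA. The log2 fold change of GLUL was 0.31 in TPM but -0.01 relative to total reads. In TPM the median of protein-coding genes with at least 10 reads was 0.34. The other 8 genes together summed to 263 TPM and 226 TPM.

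**Figure D1:**
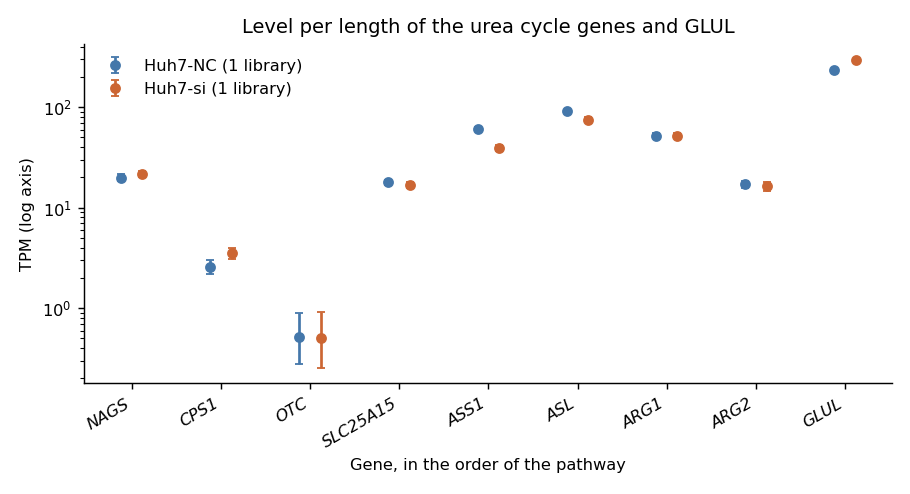
Level of each gene in TPM (log axis), in the order of the pathway, with 1 point per library and bars for the 95% counting interval. GLUL is highest (236 and 292 TPM) and OTC lowest (0.52 and 0.51 TPM), and the libraries are farthest apart, relative to their bars, at ASS1 and GLUL.

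Each gene's reads in the 2 libraries were compared as a ratio of CPM, a gene's reads scaled to the library's sum. The test was a two-sided exact binomial test, with p-values adjusted by Benjamini-Hochberg over all 26379 genes with a read. It compares these 2 libraries, not the conditions. The study's thresholds (at least 2-fold, with p under 0.05 before adjustment) were applied to this binomial test. They called 10.4% of all genes (2742) higher and 1.02% (270) lower in Huh7-si. These are not the study's own calls, and the paper reports fewer genes in both directions. None of the 9 genes was called in either direction. With a fold of at least 1.5, which called 2.87% of all genes lower, ASS1 was the one gene called. At an adjusted p under 0.05 and any fold, 4 genes were lower (ASS1, ASL, SLC25A15 and ARG2), where the background was 12.6% of all genes, and 1 was higher (CPS1), where it was 26.8%. Both shares are over all genes with a read, of which 17921 had at least 10 reads. Genes with few reads can hardly pass this rule, and no share for genes of like depth was computed. These calls rest on counting error alone. With an assumed coefficient of variation of 0.1 between replicates, edgeR's exact test left only ASS1 of the 9 genes at unadjusted p under 0.05. With 0.4 it left 0. The share of all genes passing at these settings is not given here, so these counts have no background beside them. The median log2 fold change of the 9 genes was -0.19, with a range from -0.79 to 0.42. It was 0.21 over the 17921 genes with at least 10 reads and 0.14 over the 14043 protein-coding genes among them. Of the 9 genes, 8 lay below 0 and 1 above.

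**Figure D2:**
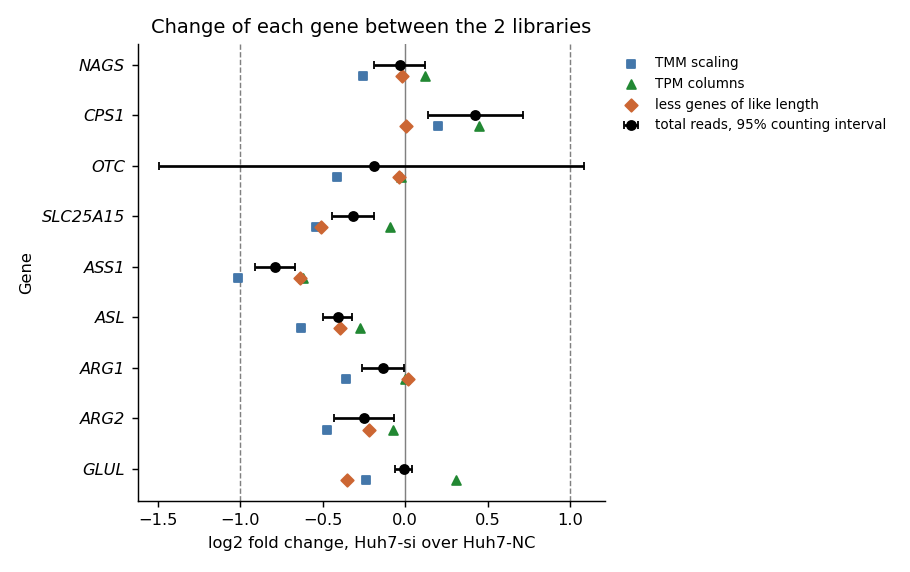
Log2 fold change of each gene, Huh7-si over Huh7-NC, from total reads with the 95% counting interval (black), with TMM scaling (squares), from the TPM columns (triangles) and as the distance from genes of like length (diamonds). Dashed lines mark 2-fold. ASS1 lies farthest to the left on each of the 4 scales, from -1.02 to -0.62, and GLUL falls on both sides of 0.

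Changes in these libraries moved with the length of the gene. Protein-coding genes of at least 10 reads were split into 20 bins by length, and the bins' medians ran from -0.37 for the shortest genes to 0.71 for the longest on the log2 scale. The lengths of the 9 genes ran from 1468 bases (ARG1) to 5723 bases (CPS1), so each change is given below also as a difference from genes of like length. TMM scaling lowered the median of protein-coding genes by 0.22 on the log2 scale, and the TPM columns raised it by 0.20. With TMM scaling, SLC25A15 was at -0.54, ASL at -0.63, ARG1 at -0.36 and ARG2 at -0.48, each farther below 0 than in the values given below. Changes smaller than the shifts between scales can take either sign with the scale chosen.

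**Figure D3:**
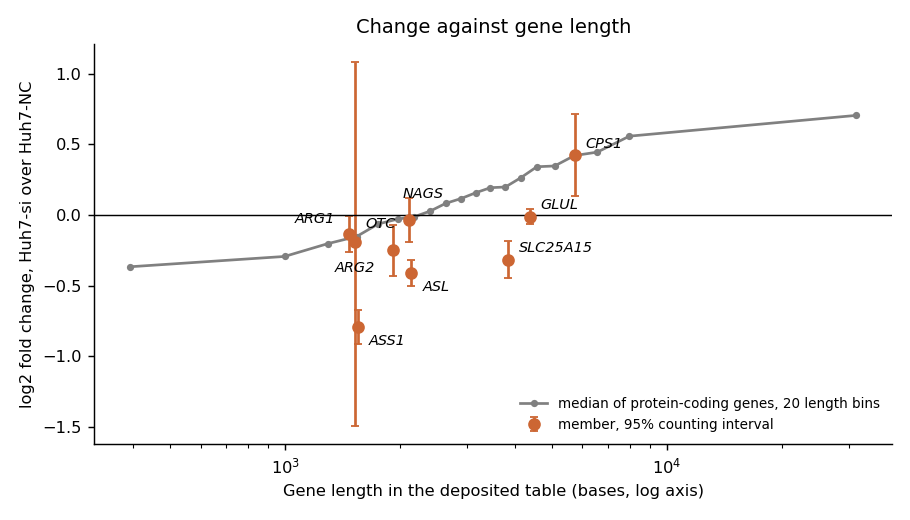
Log2 fold change, Huh7-si over Huh7-NC, against the deposited gene length in bases (log axis). The grey line joins the medians of protein-coding genes in 20 length bins and orange points are the 9 genes with 95% counting intervals. CPS1, ARG1, OTC and NAGS lie close to the line (differences of at most 0.04 in size), whereas ASS1, ASL, ARG2, SLC25A15 and GLUL lie below it.

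Of the mitochondrial enzymes, NAGS was measured well above CPS1 and OTC in both libraries. NAGS makes N-acetylglutamate, the obligate activator of CPS1. Positions here are from GENCODE 29 on GRCh38. NAGS (ENSG00000161653, chromosome 17, 44004546 to 44009063, plus strand) had 702 reads (30.7 CPM) in Huh7-NC against 663 reads (30.01 CPM) in Huh7-si. Its log2 fold change was -0.03 (95% interval -0.19 to 0.12, adjusted p = 0.81 by the exact binomial test) and -0.02 against genes of like length. The TPM columns gave the opposite sign, 0.12, and TMM scaling gave -0.26.

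CPS1, carbamoyl phosphate synthetase I, fixes ammonia in the first committed step of the cycle. It is among the most abundant mitochondrial proteins of the normal liver. CPS1 (ENSG00000021826, chromosome 2, 210477682 to 210679107, plus strand) had only 179 reads (7.83 CPM) in Huh7-NC against 232 reads (10.5 CPM) in Huh7-si. This made 2.58 TPM (2.22 to 2.99) and 3.52 TPM (3.08 to 4.003), so the intervals did not overlap. Relative to all reads CPS1 was 34.1% higher in Huh7-si, with a log2 fold change of 0.42 (0.14 to 0.71, adjusted p = 0.011 by the exact binomial test). With TMM scaling the log2 fold change was 0.20 and the unadjusted p was 0.18 by the exact binomial test, so the call did not hold. CPS1 was the longest of the 9 genes, and the median of genes of like length was also 0.42, which left a difference of 0.00. By distance over the 2 libraries in log2(CPM + 0.5), the protein-coding genes closest to CPS1 were CTBS (0.0047), LRRC27 (0.034) and HEPH (0.038).

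OTC, ornithine transcarbamylase, joins carbamoyl phosphate and ornithine to citrulline. OTC (ENSG00000036473, chromosome X, 38352545 to 38421450, plus strand) had 13 reads (0.569 CPM) in Huh7-NC against 11 reads (0.498 CPM) in Huh7-si. These were above the floor of 3 reads, which is 0.131 and 0.136 CPM. Its log2 fold change of -0.19 had an interval from -1.49 to 1.08 (adjusted p = 0.95 by the exact binomial test). The interval includes 2-fold in either direction, so a change of that size was not detectable at this depth. Against genes of like length OTC was at -0.04. CPS1 and OTC together had 3.10 TPM in Huh7-NC and 4.03 TPM in Huh7-si, beside 91.2 and 75.5 TPM of ASL.

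SLC25A15, also called ORNT1, carries ornithine into the mitochondrion in exchange for citrulline and so links its mitochondrial and cytosolic steps. SLC25A15 (ENSG00000102743, chromosome 13, 40789412 to 40810111, plus strand) had 1113 reads (48.7 CPM) in Huh7-NC against 864 reads (39.1 CPM) in Huh7-si. Relative to all reads it decreased by 19.7%, with a log2 fold change of -0.32 (-0.45 to -0.19, adjusted p = 6.1e-06 by the exact binomial test). The bin of its length had a median of 0.20, so SLC25A15 lay at -0.51 against them. In TPM the levels of 17.9 (16.9 to 19.0) and 16.8 (15.7 to 18.0) had overlapping intervals, a log2 difference of -0.09. The direction was the same on each scale, and its size was not.

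ASS1, argininosuccinate synthase, joins citrulline and aspartate in the rate-limiting step of arginine synthesis. Its change was the largest of the 9 genes in log2 size. ASS1 (ENSG00000130707, chromosome 9, 130444929 to 130501274, plus strand) had 1529 reads (66.9 CPM) in Huh7-NC against 854 reads (38.7 CPM) in Huh7-si. It decreased by 42.2% relative to all reads, which is 1.73-fold, with a log2 fold change of -0.79 (-0.91 to -0.67, adjusted p = 8.4e-38 by the exact binomial test). The interval did not overlap that of any other of the 9 genes except OTC. TPM fell from 61.0 (58.0 to 64.1) to 39.6 (37.0 to 42.4), a log2 difference of -0.62, and the difference from genes of like length was -0.64. With TMM scaling the change was -1.02, just past 2-fold, and with DESeq2's median of ratios it was -0.998, just short of it. If replicates were to vary with a coefficient of variation of 0.1, edgeR's exact test gave an unadjusted p of 0.00023, and with 0.4 it gave 0.35. ASS1 is known for many processed pseudogenes: 14 named ones were in the table, of which 4 had reads, adding up to 11.9 and 11.4. All ASS1 counts were whole numbers. The protein-coding genes closest to ASS1 over the 2 libraries were DCXR (distance 0.027), BLVRB (0.065) and GCAT (0.099).

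ASL, argininosuccinate lyase, splits the product of ASS1 into arginine and fumarate. ASL (ENSG00000126522, chromosome 7, 66075798 to 66093558, plus strand) had 2422 reads (106 CPM) in Huh7-NC against 1762 reads (79.8 CPM) in Huh7-si. It decreased by 24.7% relative to all reads, with a log2 fold change of -0.41 (-0.50 to -0.32, adjusted p = 8.0e-19 by the exact binomial test). TPM fell from 91.2 (87.6 to 94.9) to 75.5 (72.0 to 79.1), and the difference from genes of like length was -0.40. With an assumed coefficient of variation of 0.1, edgeR's exact test gave p = 0.051. Of the 3195 exon bases of ASL, 563 are shared on the same strand with the unnamed gene ENSG00000249319, which had 56.2 and 85.7 reads. Both enzymes of arginine synthesis were lower, ASS1 by more than ASL, and the ratio of ASS1 reads to ASL reads was 0.631 in Huh7-NC and 0.485 in Huh7-si.

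ARG1 is the cytosolic liver arginase that releases urea and closes the cycle. ARG1 (ENSG00000118520, chromosome 6, 131573144 to 131584332, plus strand) had 1069 reads (46.8 CPM) in Huh7-NC against 941 reads (42.6 CPM) in Huh7-si. Its log2 fold change was -0.13 (-0.26 to -0.01, adjusted p = 0.089 by the exact binomial test). The TPM was 52.3 in both libraries, and against genes of like length the change was 0.02, of opposite sign. Reads of ASS1 stood at 1.43 times those of ARG1 in Huh7-NC, against 0.908 times in Huh7-si. The ARG1 gene overlaps MED23 on the opposite strand but shares 0 exon bases with it.

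ARG2 is the mitochondrial arginase, found in many tissues besides the liver. ARG2 (ENSG00000081181, chromosome 14, 67619798 to 67651720, plus strand) had 560 reads (24.5 CPM) in Huh7-NC against 455 reads (20.6 CPM) in Huh7-si. The log2 fold change was -0.25 (-0.43 to -0.07, adjusted p = 0.018 by the exact binomial test). The difference from genes of like length was -0.22, and the TPM of 17.1 and 16.3 had overlapping intervals. ARG2 shares 904 of its 2418 exon bases with VTI1B on the opposite strand, a gene of 1851 and 1509 reads. Whether counting used strand is not given in the sources used here, so its reads could be split with those of VTI1B. ARG1 stood above ARG2 in both libraries, 3.05-fold and 3.21-fold by TPM.

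GLUL, glutamine synthetase, makes glutamine from glutamate and ammonia and marks perivenous hepatocytes. In liver tumors with active β-catenin it is a widely used marker. GLUL (ENSG00000135821, chromosome 1, 182381704 to 182392206, minus strand) had 6596 reads (289 CPM) in Huh7-NC against 6329 reads (287 CPM) in Huh7-si. The log2 fold change was -0.01 with a narrow interval from -0.06 to 0.04 (adjusted p = 0.81 by the exact binomial test). TPM went from 236 (230 to 242) to 292 (285 to 299), a log2 difference of 0.31. TMM scaling gave -0.24 (unadjusted p = 1.9e-20 by the exact binomial test), and genes of like length left -0.35. GLUL was thus the gene whose direction depended most on the scale used. The like-length value rests on the deposited length of 4364 bases. In Huh7-NC, SLC25A15, of 3821 bases, had 48.7 CPM and 17.9 TPM. GLUL, the longer gene by these lengths, had more TPM per CPM, so its TPM may rest on a shorter length. This was not tested.

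Genes around the cycle were read from 6 lists of 63 genes, 61 of them with reads. Of these 61, 6 were called higher, beside the 10.4% of all genes, and 0 were called lower, beside 1.02%. With a fold of at least 1.5 and the same exact binomial test, 10 were higher, beside 17.6% of all genes, and 5 lower, beside 2.87%. With TMM scaling, which called 6.91% of all genes higher and 2.17% lower, 3 were higher and 1, OAZ1, was lower.

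The first list held 10 enzymes that release or move ammonia and amino groups. GPT, alanine aminotransferase, was called higher, from 31 to 63 reads (log2 fold change 1.07, interval 0.43 to 1.74, or 0.85 with TMM scaling). The most abundant were GLUD1, which releases ammonia from glutamate, and the aspartate aminotransferases GOT2 and GOT1, which supply the aspartate that ASS1 uses. GLUD1 went from 6479 to 5082 reads (-0.30). GOT2 fell from 4541 to 3051 reads (-0.52, adjusted p = 6.9e-54 by the exact binomial test). GOT1 fell from 2854 to 1700 reads (-0.70, adjusted p = 1.9e-56 by the exact binomial test). None of these 3 reached 2-fold. The median of the 9 genes with at least 10 reads was -0.00, with 4 above and 5 below 0. It was -0.23 with TMM scaling and -0.24 against genes of like length. GLUD2 had 0 reads in both libraries.

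Ornithine and arginine also lead to proline and polyamines, and 15 genes of these routes were listed. PRODH, proline dehydrogenase, was the one called, from 4.5 to 20.3 reads (log2 fold change 2.22, interval 0.79 to 4.38). The median was -0.36, with 12 genes below and 3 above 0. For the 9 genes of ammonia disposal it was -0.19. With TMM scaling the medians were -0.59 and -0.42, and against genes of like length -0.35 and -0.22. OAZ1, the antizyme that marks ornithine decarboxylase for degradation, fell from 18180 to 10235 reads (-0.78), the largest fall in the list by total reads. With TMM scaling OAZ1 was at -1.004, and against genes of like length at -0.49. SAT1, which acetylates polyamines for export, went from 5395 to 4171 reads (-0.32), and PYCR1, the last step of proline synthesis, from 4725 to 3112 reads (-0.55). Against genes of like length SAT1 was at only -0.03 and PYCR1 at -0.35.

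Carriers of the amino acids that feed the cycle were listed as 16 genes, 11 of them with at least 10 reads. SLC38A2, a glutamine and neutral amino acid transporter, was called higher, from 4823 to 10264 reads (log2 fold change 1.14, or 0.91 with TMM scaling). AQP9, a channel that also passes urea, went from 0 to 6 reads, at least 2.07-fold higher when the 0 is set to the floor of 3 reads, and its 95% interval began at 1.22-fold. The median was 0.28, 0.05 with TMM scaling and -0.05 against genes of like length, so its sign turned with the scale. SLC1A5, another glutamine carrier, had 3797 and 3836 reads (0.06). SLC25A13, citrin, which brings aspartate out of the mitochondrion for ASS1, had 2005 and 1861 reads (-0.06, adjusted p = 0.38 by the exact binomial test).

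Of the 3 genes listed for the mitochondrial supply of CPS1, none was called. CA5A, the liver mitochondrial carbonic anhydrase that makes bicarbonate, fell from 251 to 143 reads (-0.76, adjusted p = 1.6e-06 by the exact binomial test). CA5B, its more widely expressed relative, had 60.2 and 69.4 reads (0.25). SIRT5, a deacylase that acts on CPS1, rose from 237 to 346 reads (0.59, adjusted p = 4.5e-06 by the exact binomial test). With TMM scaling SIRT5 was at 0.37 and against genes of like length at 0.40.

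The 9 regulators of liver metabolism read here had a median of 0.13 over the 8 with at least 10 reads, 4 above and 4 below 0, and of -0.09 with TMM scaling. PPARGC1A, a coactivator induced by fasting, was called higher, from 46 to 136 reads (log2 fold change 1.61). CEBPA, a liver transcription factor known to drive several urea cycle genes, fell from 11601 to 7249 reads (-0.63, adjusted p = 3.0e-189 by the exact binomial test). HNF4A had 6766 and 6288 reads (-0.06, or -0.28 with TMM scaling and -0.40 against genes of like length). FOXA2 went from 1412 to 1707 reads (0.32, adjusted p = 3.1e-09 by the exact binomial test). With TMM scaling FOXA2 was at only 0.10, and against genes of like length at 0.24.

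As neighbours of GLUL in function, 10 perivenous and β-catenin target genes were listed. Of the 7 with at least 10 reads, 7 lay above 0 by total reads, 6 with TMM scaling and 4 against genes of like length. The medians on these scales were 0.42, 0.19 and 0.21. LGR5, a stem cell receptor and β-catenin target, was called higher at the threshold, from 1032 to 2008 reads (log2 fold change 1.01), and with TMM scaling it was at 0.78 and not called. TBX3 went from 1112 to 1635 reads (0.61, or 0.38 with TMM scaling and 0.34 against genes of like length). ZNRF3 went from 1025 to 1324 reads (0.42, or 0.19 with TMM scaling). Against genes of like length ZNRF3 was at -0.03. LECT2, CYP2E1 and CYP1A2 had at most 5 reads in either library.

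**Figure D4:**
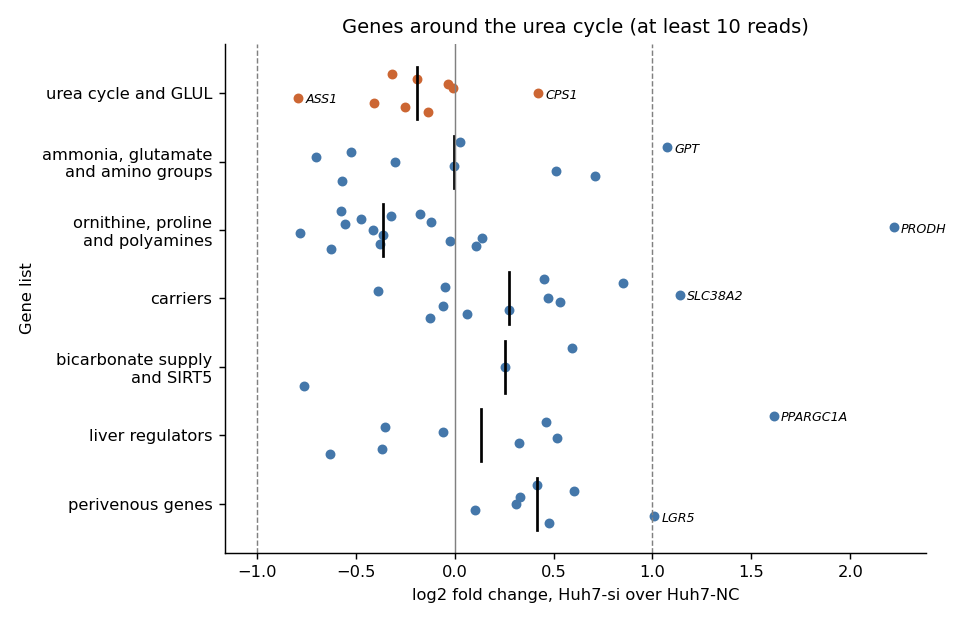
Log2 fold change, Huh7-si over Huh7-NC, of each gene with at least 10 reads in the 9 genes of ammonia disposal (orange) and 6 lists around them (blue), with black lines at each list's median. Names mark the genes past 2-fold (dashed lines) and, in the top row, the lowest and highest gene. The ornithine, proline and polyamine list has the lowest median, -0.36, and the perivenous list the highest, 0.42.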

How the data were processed

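One library of Huh7-NC and one of Huh7-si were analyzed. The authors deposited 1 table with, for each library, estimated counts of reads per gene, partly fractional and not scaled to library size, and TPM. They also deposited gene lengths in bases. The authors' own fold, log2 fold, p-value, significance and direction columns were not used. The submitters' processing notes list TopHat2 2.0.12, Bowtie2 2.0.6 and GRCh37. The counting tool, annotation and strandedness are not given in the sources used here. Gene positions and exons came from GENCODE 29 (GRCh38), which holds 94.8% of the 61541 gene identifiers. Promoter windows came from RefSeq (GRCh38.p14), matched by symbol.

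Estimated counts were rounded for tests on reads. Fold changes are ratios of CPM, with totals of 22852648 and 22089016 reads. Intervals are 95% exact Clopper-Pearson intervals and cover counting error only. A count of 0 allows 3 reads. As no spread between replicates can be estimated, edgeR's quasi-likelihood test was not run. Alternatives were other scalings (edgeR's TMM and upper quartile, DESeq2's median of ratios, the total without the 100 top genes), a pseudocount of 0.5 reads, the TPM columns, a comparison with genes of like length (20 bins), a fold of 1.5, adjusted p-values, assumed coefficients of variation of 0.1 and 0.4, and a minimum of 10 reads. The exact binomial test was tried on simulated reads in which 200 genes changed 4-fold. Without added variation, 192 of 200 intervals covered the true change, and 4.73% of unchanged genes above a minimum level had p under 0.05. With an added coefficient of variation of 0.1 these values were 116 of 200 and 45.3%. With 0.4 they were 43 of 200 and 81.1%. Where replicates vary, these intervals and p-values therefore understate the error. Named were all 9 genes and, from each other list, every gene past the call rule and the 3 with the highest mean TPM, BRF2, and the 3 genes closest to the members with the largest rise and fall among those with at least 100 reads in a library. Genes at or near 0 reads (GLUD2, LECT2, CYP2E1, CYP1A2, CD3E, DES, KRT7 and CDH5) were named after their values were seen. One further gene of the lists is not reported here. The members and lists were chosen with earlier results of these data known. Python 3.11.15, NumPy 2.4.6, pandas 2.3.3, SciPy 1.17.1, matplotlib 3.10.9, R 4.3.3, edgeR 4.0.16 and DESeq2 1.42.0 were used.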

Additional observations from a re-analysis of the deposited data

How the results depend on the processing

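With 1 library per condition, no library could be left out, and counting error is the only error measured. No paired analysis was possible because each condition had 1 library. The 9 genes' values were recomputed under 63 gene and setting combinations, and 8 values without a test moved outside the 95% counting interval, with no change of sign. Settings with a test were compared only by sign and by p under 0.05, so values that left the interval there are not among these 8. With TMM scaling, ASS1, ASL, ARG1, ARG2, NAGS, SLC25A15 and GLUL lay outside their intervals, and CPS1 and OTC inside. The sign reversed in 3 of the 63 combinations, NAGS (0.12) and GLUL (0.31) by the TPM columns and ARG1 (0.017) against genes of like length. CPS1 lost p under 0.05 with TMM, the median of ratios and the upper quartile, where NAGS and GLUL, both lower, came under it. The number of the 9 genes called lower was 0 in the main test, beside 1.02% of all genes. It was 1 (ASS1) with TMM scaling, beside 2.17%, and 1 (ASS1) at a fold of 1.5, beside 2.87%. Of the 61 genes around the cycle with reads, 6 were called higher and 0 lower, beside 10.4% and 1.02% of all genes. With TMM 3 were higher and 1 lower, beside 6.91% and 2.17%. At a fold of 1.5, 10 were higher and 5 lower, beside 17.6% and 2.87%. The cause was not tested.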
